A study of Homo sapiens with 10 samples.

Results

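Keratins that mark ductal and simple epithelium, together with a few keratins found in other epithelia, were examined as a set of 10 genes chosen by symbol: KRT7, KRT8, KRT10, KRT17, KRT18, KRT19, KRT23, KRT80, KRT81 and KRT86. Of the 10 genes, 8 were among the 27884 genes listed in the expression tables, and KRT17 and KRT23 were not. The tables come from PANC-1, an established human cell line derived from a pancreatic ductal adenocarcinoma (PDAC). The cells had been infected with lentivirus carrying the short hairpin RNA TRCN0000003690 against F2R, the gene for protease-activated receptor 1 (PAR1), or the control hairpin shc004, and both groups were selected with puromycin and kept in DMEM with 10% FCS. There were 5 shPAR1 libraries (numbered 1 to 5) and 5 shCtrl libraries (6 to 10). The comparison addresses whether PAR1 holds these cancer cells in a ductal state. It rests on 1 hairpin in 1 cell line. The labels do not state whether each library had its own culture, so p-values measure only the spread between these libraries, which may be technical.

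Keratins are the intermediate filament proteins of epithelial cells. Each filament is built from pairs of a type I (acidic) and a type II (basic) keratin, and a partner left alone is degraded. KRT8 (type II) with KRT18 (type I) is the basic pair of simple epithelia. Pancreatic duct cells add KRT19 (type I) and KRT7 (type II), and KRT19 is a standard marker of the duct lineage and of PDAC. KRT80 (type II) is found in many epithelia and KRT23 (type I) in some adenocarcinomas. KRT10 belongs to the suprabasal epidermis, KRT17 to basal and stressed epithelium, and KRT81 and KRT86 are hair keratins, so not every gene of the set is a simple-epithelium keratin.

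Total counts ranged from 15335264 to 22876248 in shPAR1 libraries and from 18317098 to 25369056 in shCtrl libraries. F2R was read first as a check of the labels, and it was 66.0% lower in shPAR1 cells (log2 fold change -1.56, standard error 0.040, limma adjusted p = 7.69e-15). The share of mitochondrial genes was 7.37% to 9.08% in shPAR1 and 5.71% to 7.07% in shCtrl libraries. Size factors computed without these genes changed no call among the keratins. Of 5 markers each, 2 were listed for leukocytes, 4 for endothelium, 2 for acinar cells and 1 for endocrine cells. None passed the expression filter, and the summed normalized counts of each of these lists reached at most 13.7 in a shPAR1 and 14.9 in a shCtrl library. Of 5 fibroblast markers 3 were listed (DCN and LUM were not), and their summed level was 5927 to 7096 normalized counts in shPAR1 against 4652 to 5414 in shCtrl cells. The collagen gene COL3A1 rose by 5.28 on the log2 scale (adjusted p = 1.81e-16 from limma) and COL1A1 fell by 0.43 (adjusted p = 1.31e-05). The part of these markers in the keratin values was not tested. In bulk RNA, fewer cells of a type and less RNA per cell cannot be told apart.

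Of the 8 listed keratins, 7 passed the expression filter, which asked for 10 or more normalized counts in 5 or more libraries. KRT8, KRT18, KRT19, KRT80 and KRT81 were lower in shPAR1 cells and none was higher. KRT7 and KRT10 did not pass the test. Over all 17518 genes tested, 40.9% passed in either direction, 21.9% lower and 19.0% higher in shPAR1 cells. The median log2 fold change was -0.45 over the 7 keratins and -0.0046 over all genes tested. The mean was lower in shPAR1 cells for each of the 8 listed keratins, KRT86 included. The shPAR1 libraries lay entirely below the shCtrl libraries for 5 of the 7 tested keratins, against 15.9% of all tested genes. A log2 fold change here is a difference of means of log2(normalized count + 1), which understates changes of genes with few counts.

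**Figure D1:**
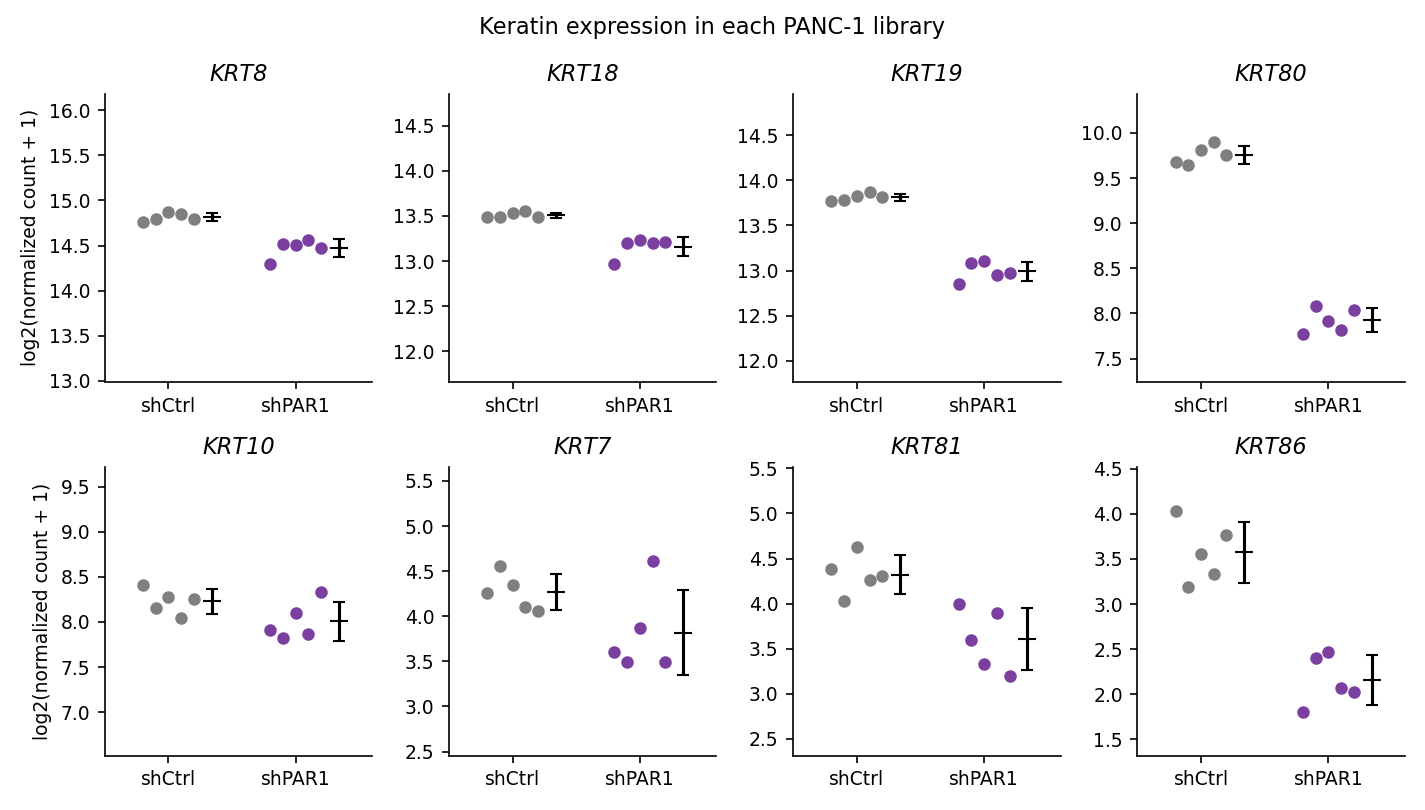
Expression of the 8 listed keratins in each library, as log2(normalized count + 1) on the vertical axis, with 5 shCtrl (grey) and 5 shPAR1 (purple) points per gene and the mean with its standard deviation to the right of each group. All panels span the same number of log2 units, and the groups are apart for all genes but KRT10 and KRT7.

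KRT8, the type II keratin of simple epithelia, was the most abundant keratin and was 21.1% lower in shPAR1 cells. Its normalized counts were 20134, 23520, 23231, 24175 and 22710 in shPAR1 libraries 1 to 5. Libraries 6 to 10, the shCtrl group, held 27684, 28498, 30006, 29471 and 28446. The groups did not overlap, and library 1 was the lowest of all. On the log2 scale KRT8 fell by 0.34 (95% confidence interval -0.44 to -0.24, standard error 0.048, limma adjusted p = 1.65e-05).

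KRT18, the type I partner of KRT8, was 21.3% lower. The normalized counts of KRT18 were 7993, 9391, 9599, 9427 and 9458 in shPAR1 libraries. The shCtrl values were 11486, 11450, 11821, 11985 and 11508. Library 1 again lay below the others, and the groups did not overlap. KRT18 fell by 0.35 on the log2 scale (95% confidence interval -0.45 to -0.25, standard error 0.048, limma adjusted p = 1.18e-05). Without library 1 both partners fell by 0.30.

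The proportion of the partners hardly moved. In shPAR1 cells KRT18 minus KRT8 was -1.31 ± 0.040 (SD, n = 5) as a difference of log2 values. In shCtrl cells the difference was -1.31 ± 0.027 (SD, n = 5), and the ranges overlapped. The 2 genes lie head to head on chromosome 12 of GRCh38, and their annotated gene bodies share 1084 bases. KRT8 is on the minus strand at chr12:52897187-52949954 and KRT18 on the plus strand at chr12:52948871-52952906. How reads in this overlap were counted is not stated in the sources at hand.

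KRT19, the ductal type I keratin, fell further, to 56.9% of its level in shCtrl cells. Its normalized counts were 7391, 8706, 8836, 7912 and 8051 in shPAR1 libraries. Libraries of shCtrl cells held 13982, 14051, 14504, 15013 and 14368. The highest shPAR1 library was far under the lowest shCtrl library. KRT19 fell by 0.82 on the log2 scale (95% confidence interval -0.92 to -0.72, standard error 0.048, limma adjusted p = 2.10e-10), and by 0.78 without library 1. The difference of log2 values, KRT19 minus KRT18, went from 0.30 ± 0.018 (SD, n = 5) in shCtrl to -0.17 ± 0.071 (SD, n = 5) in shPAR1 cells, with no overlap.

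KRT19 lies on the minus strand at chr17:41523617-41528308 (GRCh38). The study also measured KRT19 by quantitative PCR, and its primers are shown here because they mark which part of the transcript that assay reads. Both primers cross exon junctions of the GENCODE 44 canonical transcript.
KRT19 forward primer: ggacaagattcttggtgcca
KRT19 reverse primer: gttccgtctcaaacttggttc
The forward primer lay at transcript positions 475 to 494, with 7 bases in exon 1 and 13 in exon 2. The reverse primer covered positions 558 to 578, with 7 bases in exon 2 and 14 in exon 3. The forward primer had 1 exact match in genomic DNA, at chr12:94834437-94834456 in the pseudogene KRT19P2, a retrocopy without introns that was not among the listed genes. The reverse primer had 0 exact matches in the genome. The quantitative PCR data were not analysed here.

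KRT7, the usual type II keratin of pancreatic ducts, was hardly expressed in either group. Its recovered counts were 9, 12, 12, 22 and 10 in shPAR1 libraries. The shCtrl libraries had 20, 25, 18, 16 and 20. In recovered counts library 4 of shPAR1 overlapped the shCtrl range, while the other 4 shPAR1 libraries were below it. After normalization library 4 (23.51) lay above every shCtrl library, of which library 7 was highest (22.49). The log2 fold change of -0.45 (95% confidence interval -0.96 to 0.06, standard error 0.242) did not pass (limma adjusted p = 0.152). Without shPAR1 library 4 it was -0.65 (adjusted p = 0.0293 from limma). Over all leave-one-out fits the adjusted p of KRT7 ran from 0.0293 to 0.289. KRT7 lies on the plus strand at chr12:52232520-52252186, and its antisense gene KRT7-AS was too low to test. Its annotated span shares 2887 bases with KRT86 on the same strand and 1721 with KRT87P on the opposite strand. No source at hand states how reads in such overlaps were counted.

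Of the tested keratins KRT80 changed the most. It is a type II keratin whose gene lies on the minus strand at chr12:52168996-52192014, next to KRT7, and its level was 72.0% lower in shPAR1 cells. Its normalized counts were 217.7, 269.7, 240.4, 224.4 and 261.7 in shPAR1 libraries. The shCtrl values were 818.9, 800.7, 894.4, 956.3 and 861.5. The groups were far apart. KRT80 fell by 1.83 on the log2 scale (95% confidence interval -1.98 to -1.69, standard error 0.070, limma adjusted p = 7.20e-13), and 0.308% of the tested genes had a lower log2 fold change. Over all alternatives its log2 fold change lay between -1.87 and -1.80. LINC00592 overlaps KRT80 over 23019 bases on the opposite strand. It was too low to test, with a mean of 1.83 normalized counts in shPAR1 and 2.03 in shCtrl cells.

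The tested genes whose library-to-library pattern was nearest to that of KRT80, by root mean square distance of centred log2 values over the 10 libraries, were CACNG4 (distance 0.087), TPM1 (0.125) and RBMS2 (0.126). TPM1 encodes a tropomyosin, an actin filament protein, and fell by 1.67 on the log2 scale. CACNG4, a calcium channel subunit gene, fell by 1.85, and RBMS2, for an RNA-binding protein, fell by 1.69.

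KRT10, an epidermal type I keratin, was expressed at a moderate level in both groups. Its normalized counts were 238.8, 225.2, 273.3, 232.9 and 322.2 in shPAR1 libraries. Those in shCtrl libraries were 340.1, 284.3, 309.3, 262.3 and 303.6. The groups overlapped: shPAR1 library 5 lay above 4 of the shCtrl libraries, and shPAR1 library 3 above shCtrl library 9, the lowest of its group. The log2 fold change of -0.22 (95% confidence interval -0.42 to -0.02, standard error 0.095) did not pass (limma adjusted p = 0.0736). It was -0.30 without shPAR1 library 5 (adjusted p = 0.00662 from limma), -0.27 without shCtrl library 9 (adjusted p = 0.0383) and -0.25 by voom with sample weights (adjusted p = 0.0252). The highest adjusted p of any leave-one-out fit was 0.181.

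KRT10 lies on the minus strand at chr17:40818117-40822614, and 3514 bases of it overlap the antisense gene KRT10-AS1, named TMEM99 in the tables. KRT10-AS1 fell by 0.30 (log2 scale, standard error 0.085, limma adjusted p = 0.00845). Whether strand was used in the read counting is not stated in the sources at hand, and without it reads in the overlap may belong to either gene. Within shPAR1 the standard deviation of KRT10 was 0.21 log2 units, while the median of 1969 tested genes at a similar level was 0.13.

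KRT81 and KRT86 are type II hair keratins that form hard fibres in the hair cortex, and in PANC-1 cells both were near the lower limit of detection. Recovered counts of KRT81 were 12, 13, 8, 13 and 8 in shPAR1 libraries. The shCtrl libraries had 22, 17, 22, 18 and 24. The groups did not overlap, and KRT81 fell by 0.72 on the log2 scale (95% confidence interval -1.19 to -0.24, standard error 0.227, limma adjusted p = 0.0169). Its adjusted p over the leave-one-out fits ran from 0.00971 to 0.048.

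KRT86 had counts of 2, 5, 4, 3 and 3 in shPAR1 libraries. Its shCtrl counts were 17, 9, 10, 9 and 16. It missed the expression filter, since 3 libraries reached a normalized count of 10. The groups were apart, with a log2 difference of -1.42 and a two-sided exact permutation p of 0.00794, the smallest that 5 against 5 libraries can give. With a pseudocount of 5 the difference was -0.91. With no filter the adjusted p from limma was 0.00115.

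The hair keratin genes cannot be read independently. KRT81, on the minus strand at chr12:52285913-52291534, lies wholly inside the annotated span of KRT86, on the plus strand at chr12:52249300-52309163. Cut into windows of 50 bases, the length of the reads, 30.4% of the KRT81 canonical transcript matched exons of KRT86 exactly. Only runs of identical bases that end at a differing base inside a coding exon of both genes were compared for length. The longest of these was 77 bases, longer than a read, and runs reaching an exon edge may be longer. The end of that run is shown, with the base that differs in capitals.
KRT81, chr12:52288046-52288075, minus strand: acatggactgcatcattgccgagatTaagg
KRT86, chr12:52305313-52305342, plus strand: acatggactgcatcattgccgagatCaagg
A read lying wholly inside the identical run could come from either gene. No source at hand states how the counting treated such reads, so the values of KRT81 and KRT86 are uncertain.

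**Figure D2:**
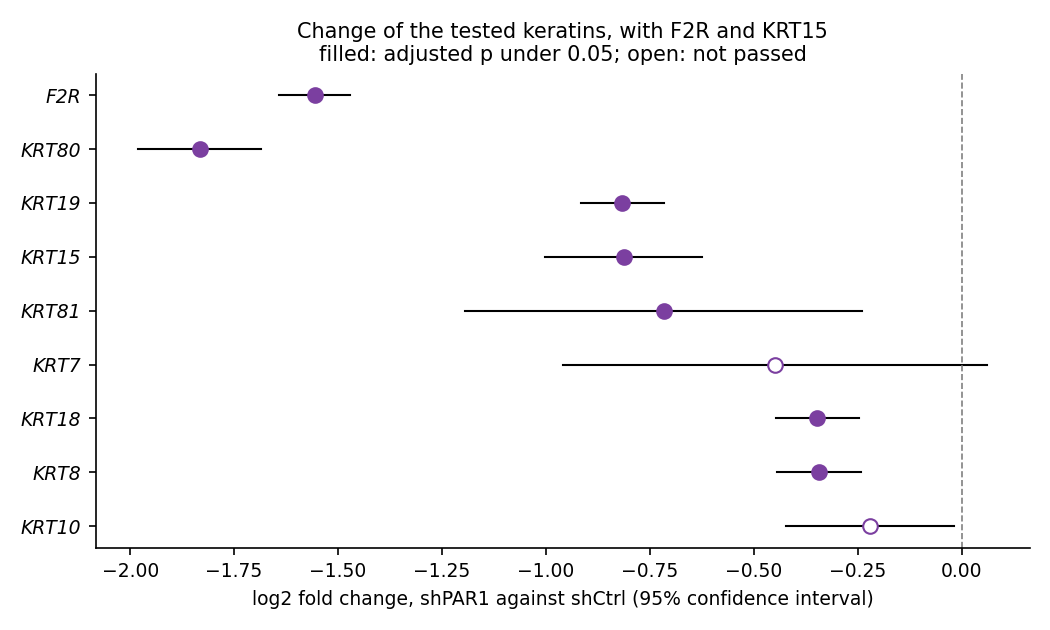
Log2 fold change of each tested keratin, shPAR1 against shCtrl, with F2R and KRT15 beside them. Points are limma estimates and lines their 95% confidence intervals. Filled points passed an adjusted p of 0.05. KRT80 fell by 1.83, while the intervals of KRT8 and KRT18 run from -0.45 to -0.24.

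KRT17 and KRT23 are annotated on the minus strand of chromosome 17, at chr17:41619442-41624842 and chr17:40922700-40937646. No value is given for them, since they were not among the listed genes, and the lowest total of a listed gene was 10 counts over the 10 libraries. Why they were not listed is not stated, so their absence does not show that they were not expressed.

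Shared sequence also bears on KRT8 and KRT18, which have many processed pseudogenes. Of the 50-base windows of the KRT8 transcript 47.1% occurred elsewhere in GRCh38, and 22.8% in KRT8P3 alone. For KRT18 the share was 39.2%. It was 35.2% for KRT81, 29.5% for KRT86, 1.79% for KRT19, 0.825% for KRT7 and 0.418% for KRT80. KRT10 had 0 of 2094 windows elsewhere.

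Counts assigned to the pseudogenes were small beside those of the parents. The 37 listed KRT8 pseudogenes together held 4.66% to 5.34% of the counts of KRT8 and its pseudogenes in each library. The 42 listed KRT18 pseudogenes held 7.60% to 8.80% of that family. KRT8P3 fell by 0.36 (limma adjusted p = 2.33e-04) and KRT8P33 by 0.35 (adjusted p = 0.00217) on the log2 scale. KRT8P12, the next most abundant KRT8 pseudogene, had a log2 fold change of 0.22 (95% confidence interval 0.03 to 0.41, adjusted p = 0.0635 from limma) and did not pass. Summed, the KRT8 pseudogenes had a log2 difference of -0.27 and the KRT18 pseudogenes one of -0.34. Of 11 tested KRT8 pseudogenes 2 were lower and of 16 tested KRT18 pseudogenes 6 were lower, with none higher, where 21.9% of all tested genes were lower, so the KRT8 count is near the background. Summing each parent with its pseudogenes, a choice made after seeing the data, gave log2 fold changes of -0.34 for KRT8 and -0.35 for KRT18. Reads that match both a parent and a copy may have been left out of both, and summing does not restore them. The sources at hand do not state how such reads were counted. These values therefore cannot show how far shared sequence affects KRT8 and KRT18.

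Per kilobase of canonical transcript the order of the keratins differed between the groups. In shCtrl cells KRT8 led at 16155 ± 514.0 normalized counts per kilobase (SD, n = 5), then KRT19 at 10348 ± 297.1 and KRT18 at 8245 ± 169.1, with no overlap between these neighbours. In shPAR1 cells KRT8 led at 12755 ± 872.9, then KRT18 at 6492 ± 470.3 and KRT19 at 5884 ± 428.3. The ranges of KRT18 and KRT19 over shPAR1 libraries overlapped. Within each of the 5 shPAR1 libraries KRT19 was the lower of the pair, by 0.086 to 0.23 on the log2 scale. Within each shCtrl library it was the higher, by 0.31 to 0.35. These levels divide by the full transcript length, although 39.2% of KRT18 windows and 1.79% of KRT19 windows occur elsewhere in GRCh38. How reads in shared sequence were counted is not stated, so which of KRT18 and KRT19 was higher within a group is uncertain.

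A similar exchange took place between KRT80 and KRT10. In shCtrl cells KRT80 was at 223.7 ± 16.1 and KRT10 at 139.9 ± 13.6 per kilobase. In shPAR1 cells KRT80 was at 62.7 ± 5.86 and KRT10 at 120.6 ± 18.7. Within every shPAR1 library KRT80 was below KRT10 per kilobase, and within every shCtrl library above it. Without the division by length KRT80 was below KRT10 in 4 of 5 shPAR1 libraries, since library 2 had 269.7 normalized counts of KRT80 and 225.2 of KRT10. KRT7 (11.3 ± 1.69 in shCtrl) and KRT81 (9.95 ± 1.58) overlapped in range, and KRT86 was lowest at 4.98 ± 1.30. In shPAR1 cells KRT7 was at 8.47 ± 3.45, KRT81 at 5.93 ± 1.52 and KRT86 at 1.57 ± 0.383, and KRT7 was far under KRT19 in both groups.

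**Figure D3:**
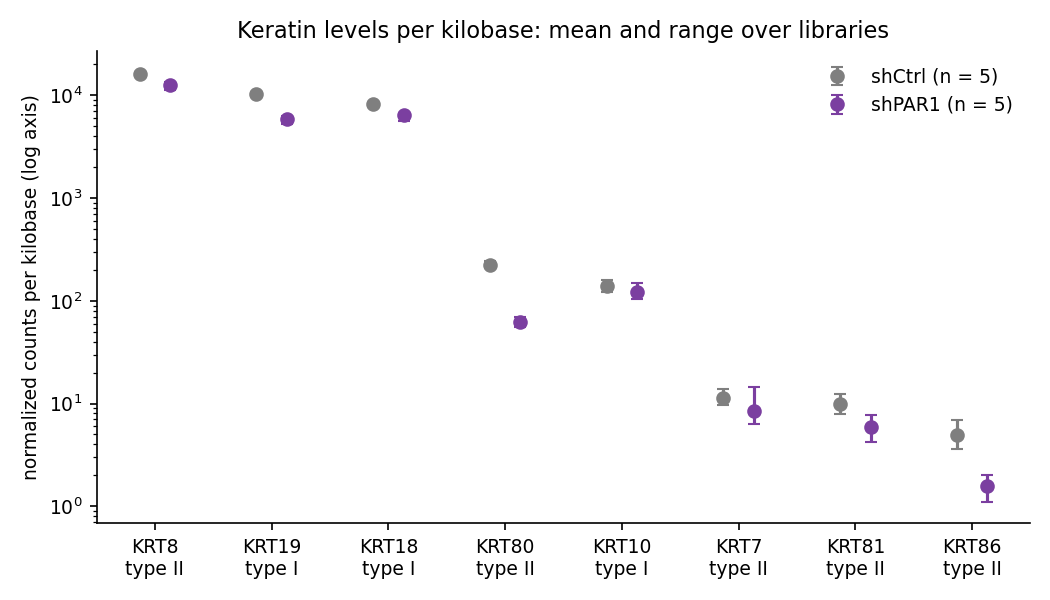
Normalized counts per kilobase of canonical transcript for the 8 listed keratins, on a log axis, with shCtrl in grey and shPAR1 in purple. Points are means and bars the range over 5 libraries. KRT8, KRT18 and KRT19 stand far above the other genes, and KRT80 passes from above KRT10 in shCtrl (223.7 against 139.9) to below it in shPAR1 cells (62.7 against 120.6).

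The 8 keratins together took 0.284% ± 0.010 (SD, n = 5) of normalized counts in shCtrl and 0.207% ± 0.011 in shPAR1 cells, with no overlap. KRT8, KRT18 and KRT19 made up 97.8% of those counts in shCtrl and 98.7% in shPAR1 cells. Summed per kilobase, type I keratins were at 18733 ± 449.5 in shCtrl and 12497 ± 849.8 in shPAR1 cells. Type II keratins were at 16405 ± 525.9 and 12833 ± 876.8. The ratio of type I to type II was 1.16, 1.13, 1.11, 1.16 and 1.15 in shCtrl libraries 6 to 10. In shPAR1 libraries 1 to 5 it was 0.976, 0.981, 1.01, 0.915 and 0.986. The mean ratio was lower by 0.168 in shPAR1 cells and the groups did not overlap. Without the division by length the mean ratio was 0.886 in shCtrl and 0.765 in shPAR1 cells. Whether type I exceeded type II in shCtrl cells thus depends on that scaling. These sums use GENCODE 44 canonical lengths, which need not be the isoforms in these cells. They also depend on how reads in sequence shared with pseudogenes were counted for KRT8 and KRT18, which is not stated.

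Of 24 other type I and 21 other type II keratin genes looked for, 3 of each type were listed, and KRT15 alone passed the filter. KRT15, a type I keratin of basal and progenitor cells, fell by 0.81 (log2 scale, standard error 0.089, limma adjusted p = 9.05e-07), from 152.7 ± 7.20 normalized counts (SD, n = 5) to 86.7 ± 7.71. KRT4, KRT16, KRT32, KRT75 and KRT83 had mean normalized counts between 0.924 and 4.03 in shPAR1 and between 1.10 and 3.75 in shCtrl cells. KRT5 and KRT14, the pair of basal epithelium, were not among the listed genes.

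Desmosomes are the junctions to which keratin filaments are anchored, through plakophilins, plakoglobin (JUP) and desmoplakin (DSP). Of 9 tested desmosome genes 6 were lower and 2 higher in shPAR1 cells, with a median log2 fold change of -0.25, where 21.9% of all tested genes were lower and 19.0% higher. The cadherin DSC3 fell by 1.64 (limma adjusted p = 7.91e-08), DSC2 by 1.12 and DSG2 by 0.88 on the log2 scale. DSP, which binds the filaments directly, fell by 1.04. The plakophilin PKP2 rose by 2.48 (adjusted p = 6.81e-14 from limma), from 101.5 to 566.8 normalized counts, and JUP rose by 0.47.

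Plakins link filaments to junctions and to the cell base, and they were examined with hemidesmosome genes. Of 10 tested genes 5 were higher, 1 lower and 4 did not pass, with a median log2 fold change of 0.14, beside 19.0% of all tested genes that were higher. Periplakin (PPL) fell by 0.76 (limma adjusted p = 1.92e-09). Epiplakin (EPPK1) rose by 0.61 (adjusted p = 1.00e-05 from limma), and the integrin ITGB4 by 0.54.

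Of 9 tested genes for other intermediate filament proteins 7 were lower and 1 was higher, with a median log2 fold change of -0.33, against a background of 21.9% lower. The lamin LMNB1 fell by 1.41 (limma adjusted p = 7.10e-14) and nestin (NES), a filament protein of progenitor cells, by 0.86. Vimentin (VIM), the filament protein of mesenchymal cells, fell by 0.33 (adjusted p = 2.65e-05 from limma).

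Of 13 tested genes for proteins that bind keratins or help to fold them, 7 were lower and 1 higher, with a median log2 fold change of -0.16, against the same 21.9% lower over all tested genes. YWHAZ, 1 of the 7, lost its call without shPAR1 library 2 or 4 or shCtrl library 6 or 10 (limma adjusted p up to 0.0871). The 14-3-3 gene YWHAQ fell by 0.65 (limma adjusted p = 2.56e-08) and DNAJB6, a chaperone that binds KRT18, by 0.44. The stress chaperone HSPB1 fell by 0.38.

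Of 8 tested genes for transcription and splicing factors of epithelial cells, 5 were higher and 1 lower, with a median log2 fold change of 0.55, beside 19.0% higher over all tested genes. GRHL3 rose by 1.95 (limma adjusted p = 2.48e-11), KLF5 by 1.54 and the splicing factor ESRP1 by 0.94, whereas GRHL1 fell by 0.47. Of 10 other ductal markers 7 were listed and 6 tested. Of those 6, 3 were higher and 3 lower, beside 19.0% higher and 21.9% lower over all tested genes. CA2, the duct enzyme carbonic anhydrase, fell by 1.74, EPCAM by 0.78 and SOX9 by 0.13 (adjusted p = 0.0129 from limma). CA2 had few counts, with a mean of 29.2 normalized counts in shCtrl and 8.03 in shPAR1 cells, and 6 libraries reached 10. E-cadherin (CDH1) rose by 1.04, CLDN4 by 0.46 and MUC1 by 0.43. Of 3 tested genes of squamous differentiation CNFN alone passed, at a log2 fold change of 0.46 (adjusted p = 0.0321 from limma). That call was lost with no filter (adjusted p = 0.0593) and without any 1 of shPAR1 libraries 2, 3, 4 and 5 or shCtrl libraries 6, 7 and 9 (adjusted p from 0.0506 to 0.0744).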

How the data were processed

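RNA was sequenced from 10 PANC-1 libraries, 5 shPAR1 and 5 shCtrl, grouped by the labels. The authors depleted ribosomal RNA, sequenced single reads of 50 bases, and used FastQC 0.11.5, Trimmomatic 0.36, HISAT2 2.1.0 on GRCh38, HTSeq and DESeq2. No source at hand states the strand setting or the annotation release. Values were deposited on a log2 scale, computed by the authors as log2 of the count over the library's size factor plus 1. Undoing this gave whole counts within 0.001084, used here as recovered counts. Each listed gene had at least 10 counts in all, and counts per library ran from 15335264 to 25369056.

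Genes reaching 10 normalized counts in 5 or more libraries were tested with limma 3.58.1 (R 4.3.3, trended variance, Benjamini-Hochberg adjustment at 0.05, checked on simulated data). KRT86 and other single values had exact two-sided permutation tests. Gene positions, lengths and exact matches came from GENCODE 44 and GRCh38, and tables from Python 3.11.15. The keratins and gene lists were chosen with earlier results of these data known. Named genes are all keratins of the set, F2R, tested keratins, the pseudogenes with the highest means and antisense genes overlapping KRT7, KRT10 and KRT80. The most changed genes of each list and the genes nearest in pattern are also named, and others are named as list members to show spread. Alternatives were filters, a pseudocount of 5, voom with sample weights, other size factors and each library left out.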

Additional observations from a re-analysis of the deposited data

Results flagged for a closer look

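KRT18 in shPAR1 library 1 stood apart from the rest of its group. Its log2 value was 12.96, while the other 4 shPAR1 libraries lay between 13.20 and 13.23, so that its gap to the nearest took up 0.880 of the group's range. Of 18 gene and group combinations examined this way 1 was set apart, and chance marks about 1 in 20. Library 1 was also lowest for KRT8, KRT19, KRT80 and KRT86, but it was the highest shPAR1 library for KRT81 and in between for KRT7 and KRT10. It had the fewest counts of all libraries. Without it KRT18 fell by 0.30 on the log2 scale (limma adjusted p = 1.81e-06).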

How the results depend on the processing

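The labels state no pairing or batch. Libraries are numbered in sequence, shPAR1 from 1 to 5 and shCtrl from 6 to 10, which does not show whether any were prepared in pairs. No paired analysis was therefore run. The calls of KRT8, KRT18, KRT19, KRT80, KRT81 and F2R kept their direction and passed under every alternative that could be run for them, and the strict filter left KRT7 and KRT81 untested, with 4 keratins lower. KRT7 passed without shPAR1 library 4, with a log2 fold change of -0.65 and a leave-one-out range from -0.65 to -0.37. KRT10 passed by voom with sample weights (-0.25) and without shPAR1 library 5 or shCtrl library 9, with a leave-one-out range from -0.30 to -0.17. The cause was not tested. Among the called genes of the related lists, pseudogenes and antisense genes, only YWHAZ and CNFN lost a call under any alternative run. The difference in the type I to type II ratio was -0.121 without length scaling, which by construction gives longer transcripts more weight, and -0.168 without KRT81 and KRT86. Upper-quartile factors gave 3702 higher and 3503 lower genes in place of 3325 and 3845. Depth limits KRT7, KRT81 and KRT86, whose counts per library were at most 25.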
